A study of Mus musculus with 22 samples.

Results

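The 7 control livers described here belong to a series of 22 perfused mouse livers, and they were chosen as the columns of the deposited table whose names begin with Control. The question was which genes and functional classes carry the messenger RNA of these livers, and which genes differ most from 1 control to the next. The other mice had received lipid nanoparticles carrying a Dsi-RNA 24 h before death. In 8 of them the dose was 0.2 mg/kg, in 4 the same dose followed 1 mg/kg of BLT-1, a blocker of lipid uptake through the receptor SR-BI, given 24 h earlier, and in 3 it was 2 mg/kg. The labels give the controls no treatment. All mice were C57BL6J, all were killed with isoflurane, and all livers were rinsed through with phosphate-buffered saline. The labels give no sex, age, date or batch, and the controls carry the animal numbers 1, 2, 14, 15, 27, 28 and 29. Nothing in the labels says more about how the 7 animals were housed or collected, so p-values measure only the spread between these samples, which may be technical.

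Hepatocytes make up most of the liver mass and release most of the proteins of blood plasma, among them albumin, transport proteins, apolipoproteins, clotting factors and complement. The same cells hold the enzymes that make glucose and urea, burn and build fat, and modify drugs. Endothelial cells, Kupffer cells, stellate cells and bile duct cells share the tissue, and inflammation makes hepatocytes release a set of acute phase proteins such as serum amyloid A and fibrinogen.

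The table holds 16469 genes beside 84 spike-in RNAs. Control libraries held 6892714 to 11012793 units on genes, detected 14016 to 14639 genes and had 2.89 to 6.16% of all units on spike-ins. A unit is the whole number that remains when the authors' scaling factor is taken off, and it is not a read. Low nonzero values of genes with 1 annotated transcript of 40 to 220 bases were examined, 68 to 87 per control. Of these, 83.8 to 94.1% were whole multiples, within 0.05, of the same length-dependent step. Its constant was the best of those tried on these values in each library, and the median share over other constants was 2.30 to 4.05%. 1 read thus counted as 158.7 units for the 108-base RNA gene Gm26377, as 51.3 units for the 218-base pseudogene Mup-ps17 and as 0.323 units for Serpina3n. Levels below are gene units rescaled to the same total in every liver (CPM), a scale that is already divided by transcript length. The libraries are 3′ libraries, which give about 1 read position per transcript, and the design had planned no division by length. The division lowers long transcripts beside short ones. The CPM order of genes of unlike length is therefore not an order of abundance. For some genes and lists, the level after multiplying back by the length of the median annotated transcript is given as the read-equivalent scale. The 218 genes without a matched length, the ribosomal RNA gene Rn18s among them, held 6.58% of units. They are left out of that scale, so its shares are shares of the matched genes only. The order of genes of unlike length can differ between the scales. Apoc1 stood at 11866 CPM and at 3841 on the read-equivalent scale, and Fgb at 922 CPM and at 7837. Single-gene levels below are CPM unless stated.

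**Figure D1:**
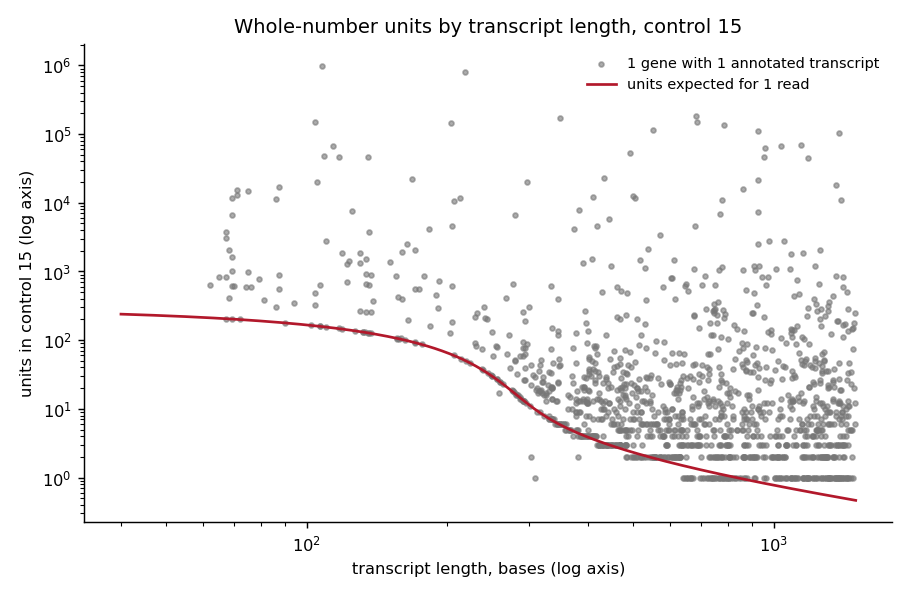
Units in control 15 (vertical, log axis) for genes with 1 annotated transcript, by transcript length in bases (horizontal, log axis); each point is 1 gene and the red line gives the units expected for 1 read. The lowest points follow the line, so the value of 1 read falls with length, and long transcripts reach the floor of 1 unit.

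The composition of the control livers was steep. A single gene held 11.5% of all gene units, the top 10 genes held 41.4%, the top 100 held 74.1% and the top 1000 held 92.7%. On the read-equivalent scale, without the unmatched genes, sets of the same size held 5.61%, 26.3%, 58.4% and 83.7%. In number, 4664 genes averaged at least 5 CPM, 605 averaged at least 100 CPM and 17 averaged at least 10000 CPM.

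The top 10 genes included 5 mitochondrial-encoded protein genes, led by mt-Atp6 at 22792 CPM, and several short RNAs and close copies. Gm26377, annotated as a microRNA gene inside the translation elongation factor gene Eef1a1, averaged 114787 ± 6172 CPM (SD, n = 7, as for all means below), while Eef1a1 itself averaged 687 ± 41.0 CPM. Mup-ps17, a pseudogene of the major urinary proteins, averaged 92863 ± 13417 CPM. The ribosomal RNA gene Rn18s averaged 49956 CPM and the small nucleolar RNA gene Snord13 averaged 17597 CPM. Protein-coding genes held 62.1% of the units and microRNA genes held 12.2%. On the read-equivalent scale, which leaves out Rn18s and the other unmatched genes, these shares were 93.5% and 0.108%. In the same way mt-Atp8, a short subunit gene of the mitochondrial ATP synthase, stood at 16664 CPM and at 375 on the read-equivalent scale.

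Among the functional classes, secreted proteins led. The 149 genes of the secreted lists held 19.97 ± 1.24% of gene units. The lowest liver (control 27) had 17.7%, the median was 19.8% and the highest (control 28) had 21.3%. Their acute phase list also holds Mt1 and Mt2, metal-binding proteins of the cell interior, and the membrane receptor gene Cd14. In control 28 Mt1 and Mt2 stood at 4840 and 3928 CPM. The 15 mitochondrial-encoded transcripts followed with 15.1 ± 0.748%. Of these 13 are protein-coding, and the 2 mitochondrial ribosomal RNAs held 1.65% of units and 4.48% on the read-equivalent scale. Next came the 334 genes of intermediary and drug metabolism with 6.09 ± 0.555% and the cytosolic ribosomal proteins with 4.89 ± 0.164%. The 122 markers of non-parenchymal cells held 0.211 ± 0.0284%. On the read-equivalent scale the shares were 30.3% for secreted proteins, 19.7% for mitochondrial transcripts, 11.7% for metabolism and 0.328% for non-parenchymal markers, so the order of these 4 classes was the same. With the longest annotated transcript in place of the median one, mitochondrial transcripts stood below metabolism, at 10.2% and 11.1%.

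**Figure D2:**
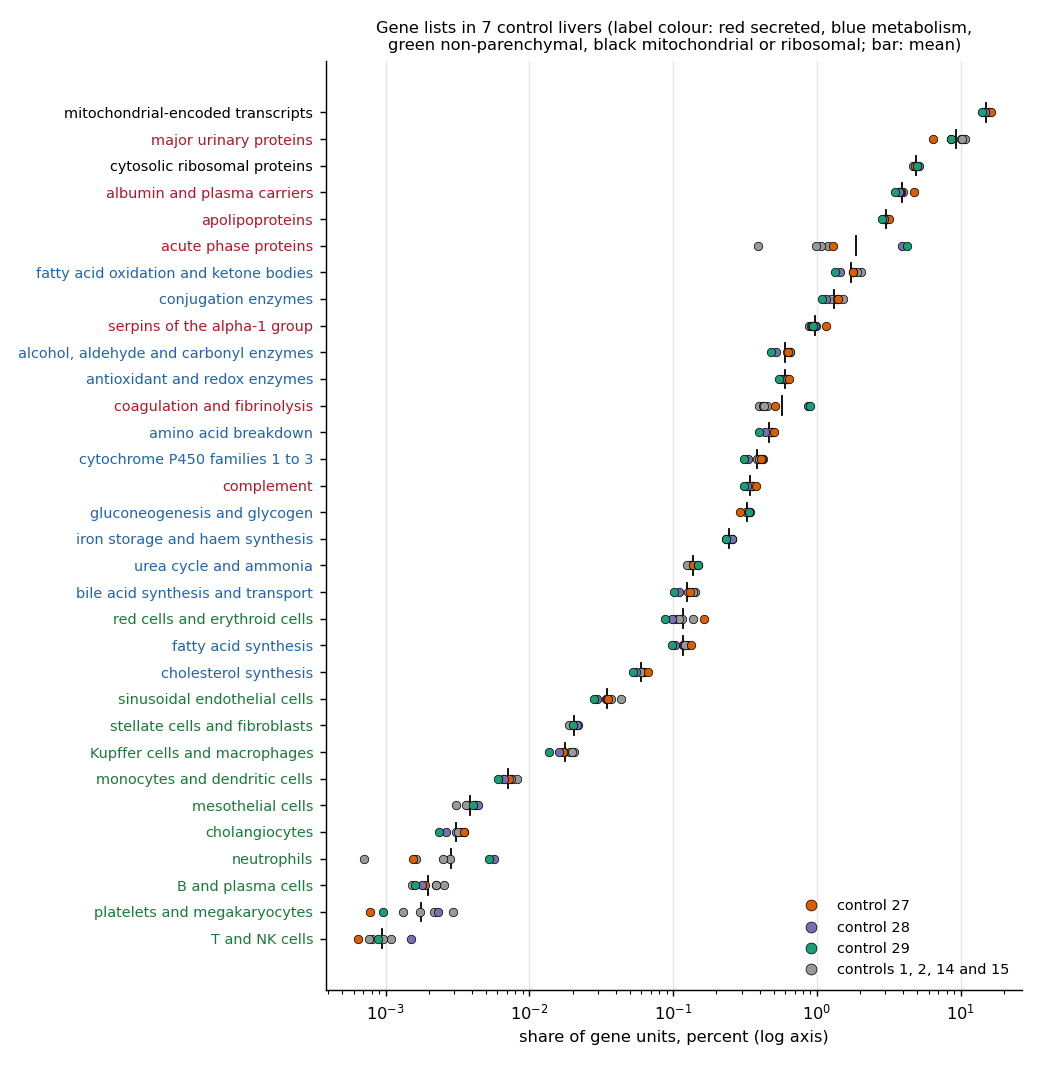
Share of gene units held by each gene list (horizontal, percent, log axis) in each of the 7 control livers; points are livers, with controls 27, 28 and 29 coloured, and bars are means. Mitochondrial transcripts and major urinary proteins sit highest, lists of immune and duct cells sit near the bottom, and acute phase and coagulation lists show controls 28 and 29 apart from the rest.

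Within the secreted class the major urinary proteins, lipocalins that carry pheromones into mouse urine, came first with 9.33 ± 1.55% of gene units. Mup14 averaged 44253 ± 6281 CPM, Mup11 11806 ± 2744, Mup20 10565 ± 2131 and Mup7 9222 ± 1715. These genes are near-identical copies, so how reads were divided among them is uncertain and their sum is the safer value. That sum leaves out the pseudogene Mup-ps17, at 92863 CPM, and whether reads of the family were counted there was not tested. At the low end of the list Mup13 averaged 0.0319 CPM. Of the 22 members in the table, 16 averaged at least 5 CPM.

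Plasma carriers held 3.91 ± 0.405%. Alb, the main plasma protein, averaged 13246 ± 1548 CPM, Ahsg, a calcium-binding fetuin, 9692 ± 1944, and Ttr, which carries thyroid hormone and retinol-binding protein, 4900 ± 622. Apolipoproteins held 3.02 ± 0.120% and were the evenest of the secreted lists across livers. The order of the smaller secreted lists depended on the scale. On the read-equivalent scale apolipoproteins held 2.40%, below coagulation at 2.67%, alpha-1 serpins at 3.02% and acute phase genes at 3.03%. Apoc1 and Apoa2, small proteins of lipoprotein particles, averaged 11866 ± 1054 and 6906 ± 405 CPM, and Apoe averaged 4251 ± 223. Apob, the scaffold of these particles, averaged 18.7 on the length-divided CPM scale. The alpha-1 group of serpins, inhibitors of proteases, held 0.968 ± 0.0909%, led by Serpina1c at 1948 ± 156 CPM and Serpina1e at 1880 ± 450, again near-identical copies.

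Coagulation genes held 0.396 to 0.901%, with the fibrinogen chains Fgg, Fgb and Fga in front at 1712, 922 and 819 CPM, then Kng1 (kininogen) at 498 ± 19.5 and F2 (prothrombin) at 424 ± 23.0. Complement genes held 0.343 ± 0.0219%, led by C8a at 609 ± 73.4 CPM, Cfb at 522 ± 45.5 and C4b at 515 ± 36, while C3, the central component, stood at 270 ± 45.5. Acute phase genes held 1.87% as a mean, but that mean stands for no single liver, since the values ran over 0.393% in control 1, a median of 1.21% and 4.22% in control 29.

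By gene units the fatty acid oxidation list led metabolism. Fabp1, the fatty acid carrier of the hepatocyte cytosol, averaged 12497 ± 2716 CPM and made up 72.6% of the fatty acid oxidation list, which held 1.72 ± 0.251%. Acaa2, the thiolase of mitochondrial beta-oxidation, averaged 2298 ± 164 CPM. Conjugation enzymes came second with 1.09 to 1.52%, of which Gstp1, a glutathione transferase, gave 55.4% at 7293 ± 1351 CPM, followed by Mgst1 at 2378 ± 143. Alcohol and carbonyl enzymes held 0.483 to 0.650% with Adh1 at 1158 ± 156 CPM. Redox enzymes held 0.597 ± 0.0345% with Sod1 at 2284 ± 80.1. This order depended on the scale. On the read-equivalent scale fatty acid oxidation held 2.055%, conjugation enzymes 2.004% and redox enzymes 1.714%. With the longest annotated transcript these shares were 1.534, 1.591 and 1.796%, so redox enzymes then stood above the other 2.

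Further down, amino acid breakdown held 0.467 ± 0.0370%, led by the glycine methyltransferase Gnmt at 784 ± 65.1 CPM. The cytochrome P450 families held 0.381 ± 0.0433%, led by Cyp2e1 at 1019 ± 138 and Cyp3a11 at 653 ± 143. Gluconeogenesis and glycogen genes held 0.327 ± 0.0165%, where Pck1, the first committed enzyme of glucose synthesis, stood at 355 ± 44.8 CPM. The urea cycle held 0.137 ± 0.00894% and was led by Arg1 at 626 ± 162 CPM, while Cps1, its entry enzyme, stood at 90.2 ± 18.8. Bile acid genes held 0.126 ± 0.0149%, with Cyp7a1, the rate-limiting enzyme of bile acid synthesis, at 11.2 ± 2.68 CPM. Fatty acid synthesis held 0.117 ± 0.0124%, led by the desaturase Scd1 at 329 ± 31.9 CPM, with the synthase Fasn at 13.9. Cholesterol synthesis was lowest of the metabolic lists with 0.0602 ± 0.00483%.

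The liver label held against hepatocyte markers, since the lowest values of Alb, Fabp1 and Ttr were 11194, 8219 and 4167 CPM, and Hnf4a, a hepatocyte transcription factor, averaged 43.9 ± 4.26 CPM. Non-parenchymal markers were low beside them, and in whole tissue fewer cells of a type cannot be told apart from less RNA per cell. By gene units the largest part of this class was the red cell list, at 0.117 ± 0.0257%. It was led by the haemoglobin genes Hba-a2 at 557 ± 114 and Hbb-bs at 463 ± 117 CPM in livers labelled as perfused. On the read-equivalent scale the red cell list held 0.0701%, below the sinusoidal endothelial list at 0.107%. The haemoglobin genes are close copies too, so the division between them is uncertain. Sinusoidal endothelial markers held 0.0346 ± 0.00511%, of which the scavenger receptor Stab1 gave 75.3% at 260 ± 52.9 CPM. The lectin Clec4g stood at 18.3 ± 1.65 and the growth factor receptor Kdr at 6.71 ± 0.618.

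Stellate cell and fibroblast markers held 0.0205 ± 0.00107%, led by the matrix genes Dcn at 89.8 ± 7.09 and Ecm1 at 76.3 ± 7.43 CPM, while Lrat, the enzyme that stores vitamin A in stellate cells, stood at 0.907 and the muscle actin gene Acta2 at 0.762. Kupffer cell markers held 0.0176 ± 0.00231%. The lysozyme gene Lyz2 averaged 48.3 ± 11.8 CPM, the secreted Cd5l 20.5 ± 3.72, the complement subunits C1qb and C1qc 18 ± 2.23 and 16.2 ± 1.78, and the lectin Clec4f 3.58.

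The lists of bile duct, lymphocyte and neutrophil markers held 0.00308% or less each, and 1 or 2 genes carried most of each sum. Spp1, also a macrophage gene, stood at 15.8 ± 3.18 CPM, but the duct keratins Krt19 and Krt7 stood at 0.338 and 0.0635 and Epcam at 0.457. In the T and NK cell list the chemokine gene Ccl5 stood at 5.77 CPM and the T cell receptor gene Cd3e at 0.0908. Among neutrophil markers S100a8 and S100a9 stood at 14.1 and 12.1 CPM and the granule gene Camp at 0.0561, and the B cell gene Cd79b stood at 0.105. Antigen-presenting genes were higher, with H2-Aa at 27.4 ± 3.36, and the immunoglobulin light chain Igkc stood at 14.8 ± 3.67. Markers of pancreas and gut held 0.00328 ± 0.000556%, mostly through the elastase Cela1 at 20.2 ± 5.20 CPM.

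Spread among controls was measured as the excess coefficient of variation, the SD over the mean after the part expected from counting reads was taken off. A gene was called variable at 0.5 or above when its mean was at least 5 CPM. By this rule 233 of 4664 genes were variable. Genes other than protein-coding ones gave 150 of 412 (36.4%). Of protein-coding genes 83 of 4252 were variable (1.95%), namely 20 of 396 genes with an annotated transcript under 300 bases (5.05%) and 63 of 3856 genes without (1.63%). The median excess coefficient over protein-coding genes was 0.105. Just inside the limit lay Pf4, a platelet chemokine, at 0.503 and just outside lay G0s2, a lipase inhibitor, at 0.499.

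The 3 protein-coding genes of highest excess all had such a short transcript. Plekha1, an adaptor protein gene, stood at 29.4 CPM in control 14 and at 1.45 to 1.91 CPM in the other 6 controls. Zfp507 and Suco were highest in control 14, at 24.5 and 37.1 CPM, and next in control 15, at 11.8 and 32.5. How far a few reads on a short transcript made these values was not tested. The genes described next have no annotated transcript under 300 bases unless stated, and this restriction was chosen after their values had been seen.

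Of the 20 acute phase genes at 5 CPM or more, metallothioneins included, 10 were variable, against 1.95% of all protein-coding genes, and their median excess coefficient was 0.526. Saa1, serum amyloid A of the plasma lipoproteins, had 389 CPM in control 1, 2406 to 3499 CPM in controls 2, 14, 15 and 27, and 11276 and 12247 CPM in controls 28 and 29. Its excess coefficient was 0.92. Saa2, its neighbour and close copy, had 234 CPM in control 1, 1940 to 2762 CPM in the same 4 controls and 9577 and 10691 CPM in controls 28 and 29. Control 1 was thus lowest and controls 28 and 29 highest for both genes, with no overlap between those 3 levels. Reads shared by these copies could be counted for either gene.

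Other members ranked the livers in much the same way. Orm2, an acid glycoprotein, had 27.7 CPM in control 1, a median of 181 and 367 CPM in control 28. Lcn2, a lipocalin that binds bacterial iron carriers, had 16.7 CPM in control 1, a median of 97.1 and 211 CPM in control 29. Saa3 differed, with 29 CPM in control 1 and 356 to 532 CPM in the other 6. Crp, the C-reactive protein gene, was flat at 97.0 to 111 CPM, with an excess coefficient of 0.0499. Hamp, which encodes the iron hormone hepcidin, stayed between 1004 and 2140 CPM (0.264).

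Mt1 and Mt2, the metallothioneins that bind zinc and copper, ranked higher still. Mt1 had 159 CPM in control 1, 364 to 656 CPM in controls 2, 14, 15 and 27, and 4840 and 5658 CPM in controls 28 and 29, an excess coefficient of 1.31. Mt2 had 153, then 401 to 668, then 3928 and 4577 CPM in the same sets of livers (1.21). Without controls 28 and 29 the values were 0.438 for Mt1 and 0.430 for Mt2.

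The stretches around the transcription starts of these genes are shown because the genes of each pair moved together among the livers. They are taken from the RefSeq promoter table on GRCm38.p6, which reaches from 250 bases before to 50 bases after the annotated start, and read in the direction of the gene. Capitals mark the C/EBP motif TTGCNNAA in the serum amyloid genes and the cores TGCACNC and TGCGCNC of the metal response element in the metallothionein genes, searched on both strands, where no 2 matches overlapped.
Saa1 at chr7:46742931-46743230 (minus strand): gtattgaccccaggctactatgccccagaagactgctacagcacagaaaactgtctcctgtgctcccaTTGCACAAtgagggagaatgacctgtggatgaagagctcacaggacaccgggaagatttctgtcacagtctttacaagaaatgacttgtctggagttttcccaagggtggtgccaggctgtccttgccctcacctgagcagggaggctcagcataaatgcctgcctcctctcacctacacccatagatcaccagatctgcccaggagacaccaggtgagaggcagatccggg
Saa2 at chr7:46751583-46751882 (plus strand): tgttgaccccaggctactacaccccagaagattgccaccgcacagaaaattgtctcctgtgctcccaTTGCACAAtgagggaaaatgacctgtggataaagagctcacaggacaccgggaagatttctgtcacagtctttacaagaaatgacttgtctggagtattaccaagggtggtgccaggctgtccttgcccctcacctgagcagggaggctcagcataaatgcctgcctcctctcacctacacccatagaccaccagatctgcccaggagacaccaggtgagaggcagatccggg
Mt1 at chr8:94178839-94179138 (plus strand): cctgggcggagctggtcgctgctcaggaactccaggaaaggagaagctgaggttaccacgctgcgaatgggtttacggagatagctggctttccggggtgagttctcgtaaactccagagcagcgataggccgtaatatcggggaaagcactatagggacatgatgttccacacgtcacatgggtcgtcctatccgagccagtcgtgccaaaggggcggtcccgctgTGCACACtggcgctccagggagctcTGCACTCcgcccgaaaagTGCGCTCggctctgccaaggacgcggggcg
Mt2 at chr8:94172368-94172667 (plus strand): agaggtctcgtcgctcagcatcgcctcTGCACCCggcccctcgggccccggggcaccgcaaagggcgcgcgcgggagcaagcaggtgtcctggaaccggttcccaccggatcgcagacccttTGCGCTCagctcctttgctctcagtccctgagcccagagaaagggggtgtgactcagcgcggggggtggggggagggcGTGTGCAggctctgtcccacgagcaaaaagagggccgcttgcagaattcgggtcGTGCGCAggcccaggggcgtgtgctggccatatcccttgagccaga
Among 32851 RefSeq promoters of this length, 10.8% hold the C/EBP motif, 12.6% hold TGCACNC and 15.4% hold TGCGCNC. Both serum amyloid windows hold 1 C/EBP match, and neither holds a match to the NF-kappaB consensus or to the STAT3 motif TTCNNNGAA. The Mt1 window holds 2 TGCACNC matches and 1 TGCGCNC match, and the Mt2 window holds 2 of each besides 1 C/EBP match that is not capitalised. These matches describe the letters only, and the data here do not measure binding.

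Some other plasma protein genes were also highest in controls 28 and 29. Over all secreted lists, with Mt1, Mt2 and Cd14 counted, 34 of 137 members were highest there, against 15.1% of all protein-coding genes. In number 37 were lowest, against 23.4%. Of 22 complement genes 2 were highest and 11 lowest, and Alb was lowest, at 11797 and 11194 CPM, against 12882 to 15848 CPM in the other 5. Fgg had 894 to 1326 CPM in the first 5 controls and 3319 and 3458 CPM in controls 28 and 29 (excess 0.674). Fga had 400 to 667 CPM against 1504 and 1718 CPM, and Fgb 519 to 754 CPM against 1635 and 1721 CPM, in the same 2 sets. The serpin Serpina3n had 49.4 to 93.1 CPM and then 394 and 458 CPM (0.970), and Itih4, an inter-alpha-trypsin inhibitor chain, had 98.1 to 152 CPM and then 376 and 390 CPM (0.628). These 3 fibrinogen chains were the variable members among 24 coagulation genes, whose median was 0.110.

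Several genes of lipid handling, named here after their values were seen, ranked the livers in the same way. Fabp4, a fatty acid carrier best known from adipocytes and macrophages, had 13.8 to 22.2 CPM in the first 5 controls and 157 and 150 CPM in controls 28 and 29 (excess 1.20). Plin2, which coats lipid droplets, had 99.8 to 125 CPM and then 451 and 515 CPM (0.839). Cidec, which enlarges droplets, had 6.38 to 10.4 CPM and then 56.4 and 61.3 CPM (1.09). Ehhadh of peroxisomal oxidation had 3.63 to 6.64 CPM and then 18.7 and 21.8 CPM (0.775). The lipoprotein gene Apoa4 had 101 to 137 CPM and then 348 and 400 CPM (0.665).

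**Figure D3:**
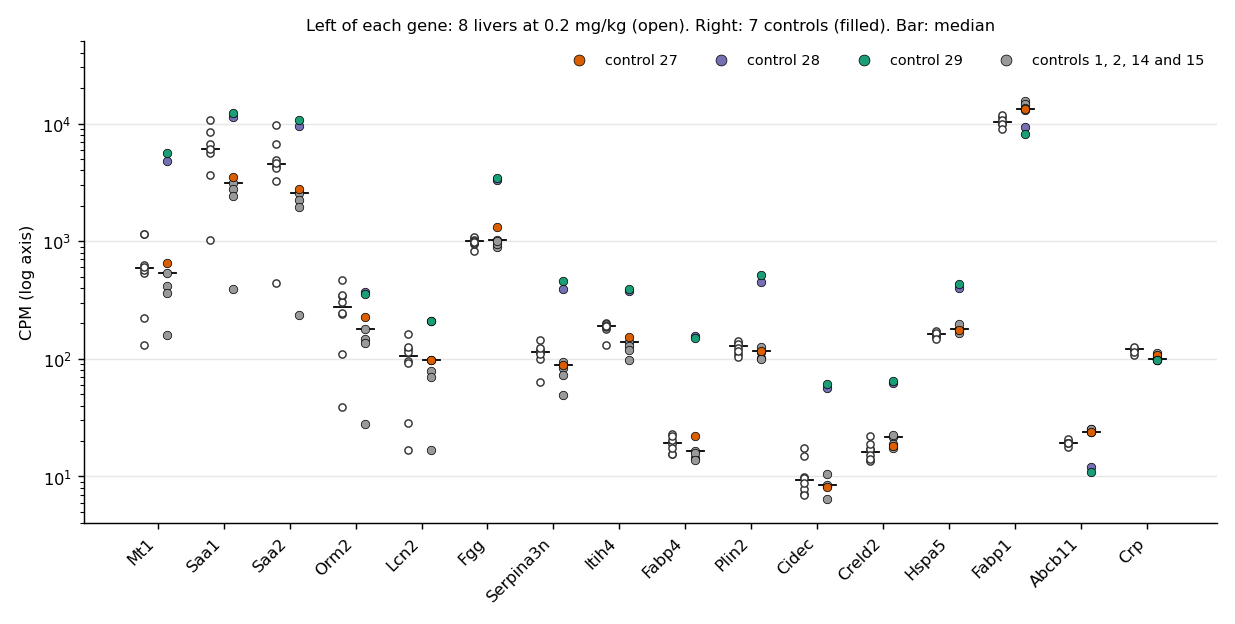
CPM of 16 genes (vertical, log axis) in 8 livers at 0.2 mg/kg (open points, left of each gene) and 7 controls (filled points, right); bars are medians. Controls 28 and 29 stand above the other controls for most of these genes and below them for Fabp1 and Abcb11, while Crp spans a narrow range in both groups.

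Genes of protein folding in the endoplasmic reticulum followed, though few passed the limit. Of 19 members 14 were highest in controls 28 and 29, against 15.1% of all protein-coding genes, and 1 member, the calcium-binding Creld2, was variable (0.660). Hspa5, the main chaperone of that compartment, had 165 to 199 CPM in the first 5 controls and 400 and 429 CPM in controls 28 and 29 (0.467). Hsp90b1, its partner chaperone, has an annotated transcript under 300 bases and had 121 to 144 CPM and then 298 and 322 CPM (0.479). Cytosolic heat shock genes went the other way, with 10 of 15 members lowest in controls 28 and 29, against 23.4% of all protein-coding genes.

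Of 290 members of the metabolism lists 4 were variable (Cidec, Plin2, Ehhadh and Nnmt), near the 1.95% of all protein-coding genes. In number 158 of 290 were lowest in controls 28 and 29, against 23.4% of all protein-coding genes. For alcohol and carbonyl enzymes that count was 27 of 37 and for amino acid breakdown 25 of 38. Fabp1 had 13054 to 15583 CPM in the first 5 controls and 9291 and 8219 CPM in controls 28 and 29. Abcb11, the bile salt export pump, had 23.9 to 25.4 CPM and then 12 and 10.8 CPM. Hsd3b5, a steroid dehydrogenase, had 36.7 to 62.2 CPM and then 15 and 15.4 CPM. In fatty acid oxidation 16 of 29 members were highest in the same livers, against 15.1% of all protein-coding genes, and 4 were lowest, against 23.4%.

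These 2 livers had the largest libraries, with 10182730 and 11012793 gene units, against 6892714 to 9937304 in the other 5. Their spike-in shares of 5.23 and 3.79% lay inside the range of the others. The red cell list was lowest in them, at 0.0977 and 0.0880% of units against 0.105 to 0.163% in the other 5. Kupffer cell markers were lowest too, at 0.0160 and 0.0138% against 0.0171 to 0.0204%, as were sinusoidal endothelial markers, at 0.0293 and 0.0280% against 0.0342 to 0.0434%, and bile duct markers, at 0.00261 and 0.00233% against 0.00311 to 0.00352%. The 8 neutrophil markers in the table were highest in them, at 0.00568 and 0.00525% against 0.000708 to 0.00281%, through S100a8 at 28.1 and 24.6 CPM and S100a9 at 23.8 and 22. Camp, which marks granule-forming neutrophils, was at 0 in control 28 and at 0.0908 CPM in control 29, and Ngp was at 0.0982 and 0.182 CPM in them. The part of depth and of these cells in the results was not tested.

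Of the 63 variable genes without a short transcript, 42 (66.7%) had both highest values in controls 28 and 29, where 641 of 4252 protein-coding genes did (15.1%), and 2 (3.17%) had both lowest values there, where 993 of 4252 did (23.4%). The limit itself favours this, since 2 high livers out of 7 raise the coefficient more than 2 low ones, so nothing is read from these shares. The count of variable protein-coding genes was 48 without these 2 livers, and 83 to 97 when 1 liver was left out at a time. The labels name no factor that these 2 share.

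**Figure D4:**
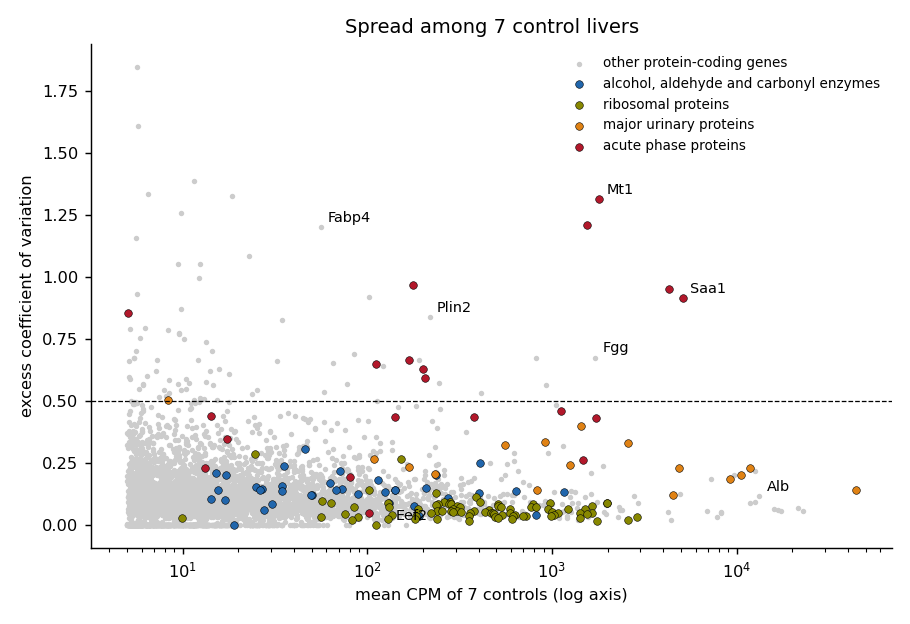
Excess coefficient of variation among 7 controls (vertical) by mean CPM (horizontal, log axis) for protein-coding genes of at least 5 CPM; the dashed line marks 0.5. Of 20 acute phase genes 10 lie above the line, as does 1 of 16 major urinary protein genes (Mup22, at 0.506), and none of 82 ribosomal protein genes reaches it.

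Control 27 carried another pattern, led by low urinary proteins. The major urinary proteins held 6.43% of units there and 8.62 to 10.7% in the other 6 controls. Mup17 had 1056 CPM in control 27 and 2327 to 3865 CPM in the other 6, and Mup11 had 6891 CPM against 10278 to 15161 CPM. Mup3 was not low, at 4505 CPM within a range of 3551 to 5353. Nor was the pseudogene Mup-ps17, at 86749 CPM within a range of 81085 to 120754. Several plasma proteins were highest in the same liver, with Ahsg at 13866 CPM against 8140 to 10082 CPM, Serpina1e at 2869 CPM against 1582 to 1927 CPM and Trf, the iron carrier transferrin, at 1716 CPM against 1182 to 1340 CPM.

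Single genes chosen after their values were seen were high in control 27 too. Socs2, an inhibitor of growth hormone signalling, had 32.9 CPM there and 9.06 to 14 CPM in the other 6 (excess 0.565), and Onecut1, a hepatocyte transcription factor, had 12.8 CPM against 3.51 to 4.30 CPM (0.661). Elovl3, a fatty acid elongase, had 101 CPM against 31.5 to 77.8 CPM. The red cell list was also highest in this liver, at 0.163% of units against 0.0880 to 0.138%, and its library was the smallest, with 6892714 gene units. Their part in the pattern was not tested. Of the 63 variable genes without a short transcript 10 were highest in control 27 (15.9%), and of all 4252 protein-coding genes 885 were (20.8%).

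**Figure D5:**
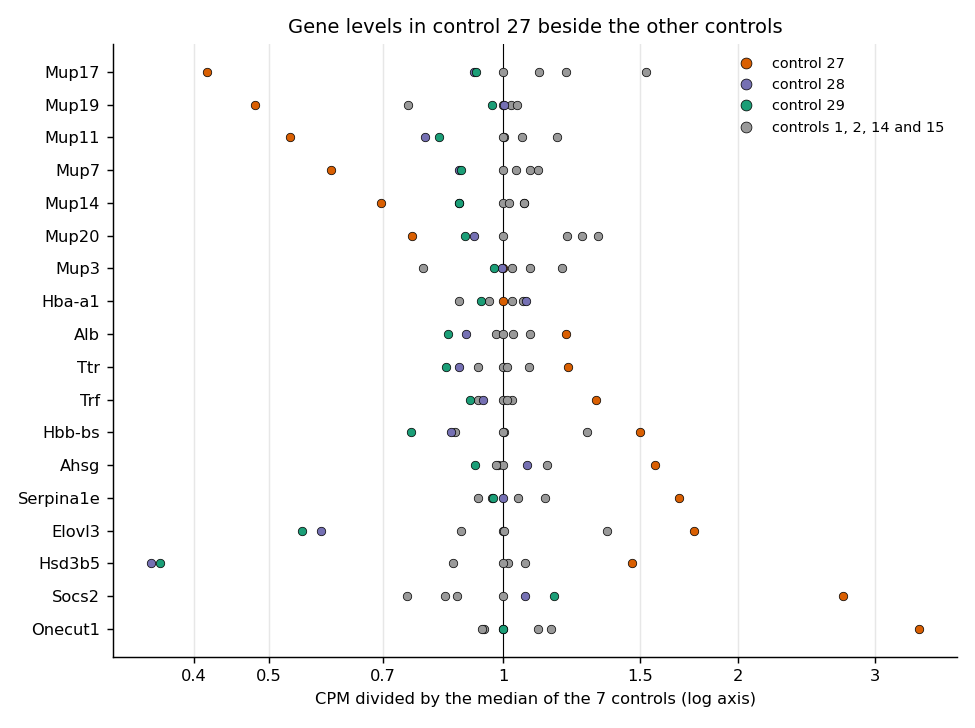
CPM of 18 genes in each control divided by the median of the 7 controls (horizontal, log axis). Control 27 lies lowest for Mup17, Mup19, Mup11, Mup7, Mup14 and Mup20 and highest for Ahsg, Serpina1e, Socs2 and Onecut1, while Mup3 and Hba-a1 are close to the median.

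Single livers led a few other genes. Phlda1, a stress-induced gene, had 121 CPM in control 15 and 31 to 69.8 CPM in the other 6, and Foxq1, a forkhead factor, had 15.9 CPM in control 15 and 4.36 to 10.6 CPM elsewhere. Isg15, a ubiquitin-like interferon response gene, had 9.36 CPM in control 1 and 23.7 to 38.7 CPM elsewhere. The endothelial adhesion gene Pecam1 had 17.8 and 18.8 CPM in controls 14 and 15 and 6.58 to 8.75 CPM in the other 5.

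Among the least variable genes of at least 50 CPM were Eef2 and Pebp1. Eef2, the elongation factor that moves the ribosome, had 128 to 133 CPM (coefficient of variation 0.0155) and Pebp1, a kinase inhibitor protein, had 56.0 to 59.3 CPM (0.0190), both with an excess of 0. The median excess was 0.0553 over 82 ribosomal protein genes and 0.0564 over 13 mitochondrial-encoded protein genes, against 0.105 over all protein-coding genes. None of either list was variable, beside 1.95% of all protein-coding genes, and nothing is read from that count. Sod1 had 2159 to 2385 CPM, and the kininogen gene Kng1 had 479 to 528 CPM.

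The same measure was then taken in the 8 livers at 0.2 mg/kg, which had no part in choosing the variable genes. There 61 protein-coding genes were variable, which is 1.36% of those tested. The 2 lists had 24 genes in common, which is 39.3% of the 0.2 mg/kg list and 28.9% of the control list. Saa1 ranged over 1021 to 10641 CPM at 0.2 mg/kg (excess 0.480) and over 389 to 12247 CPM in controls. Orm2 ranged over 39.2 to 465 CPM at 0.2 mg/kg (0.520) and over 27.7 to 367 CPM in controls (0.591), and Lcn2 over 16.8 to 162 CPM (0.521) and 16.7 to 211 CPM (0.649). Orm2 and Lcn2 were past the limit of 0.5 in both groups, and Saa1 was past it in controls. Mt1, Mt2 and Saa2 were also past it in both groups, with 0.596, 0.734 and 0.562 at 0.2 mg/kg.

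Other genes with a wide range in controls had a narrow one at 0.2 mg/kg. Plin2 ranged over 103 to 143 CPM at 0.2 mg/kg and over 99.8 to 515 CPM in controls, Fabp4 over 15.6 to 22.8 CPM and 13.8 to 157 CPM, and Fgg over 823 to 1087 CPM and 894 to 3458 CPM. The difference in spread was tested with limma on absolute deviations of log2(CPM + 1) from the group mean, fitted over 4827 genes with Benjamini-Hochberg adjustment. It called 180 genes (3.73%), of which 165 were narrower at 0.2 mg/kg (3.42%) and 15 were wider (0.311%). For Plin2 the deviation was 0.14 at 0.2 mg/kg and 0.93 in controls, a difference of -0.79 ± 0.13 (SE; adjusted p = 1.39e-04 in limma), and for Fabp4 it was -1.22 ± 0.20 (adjusted p = 1.39e-04).

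Fgg (-0.67 ± 0.11, adjusted p = 2.53e-04), Hspa5 (-0.47 ± 0.08, adjusted p = 2.65e-04) and Abcb11 (-0.42 ± 0.07, adjusted p = 2.65e-04) were called by limma as well. By list, narrower calls numbered 8 of 24 coagulation genes, 7 of 19 genes of endoplasmic reticulum stress, 6 of 29 genes of fatty acid oxidation and 4 of 19 acute phase genes. The share over all genes was 3.42%, and lists of 16 major urinary protein genes, 15 mitochondrial transcripts and 84 ribosomal protein genes had 0 such calls, which was not tested against that share. Saa1 was not called (-0.43 ± 0.34, adjusted p = 0.592 in limma), nor was Mt1 (-0.82 ± 0.38, adjusted p = 0.262).

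These calls rested on controls 28 and 29. The limma count was 22 genes without control 28, 22 without control 29 and 29 without both, and 270 to 302 without any other 1 control. With deviations from the group median in place of the mean, limma called 0 genes, with 283 at an unadjusted p under 0.05. Genes with a wide spread in controls enter the test through that same spread, so the calls add nothing independent on the controls.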

How the data were processed

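Per the labels' protocols, RNA of each perfused liver was made into 3′ messenger RNA libraries with ERCC spike-ins. The submitters' processing notes name bcl2fastq, Trim Galore 0.6.7, STAR 2.7.9a, Salmon 1.5.2, R 4.1.1, DESeq2 1.32.0 and the build GRCm39. The deposited values are a signal, namely whole numbers divided by 1 factor per library. All values (100%) were whole multiples, within 0.001, of their column's smallest value. These whole numbers are length-scaled estimates and not reads, although reads had been assumed when the design was set, so no count test was run. Control libraries held 7152596 to 11447028 units in all. Spike-ins were left out and each column was rescaled to equal gene totals (CPM). Gene types and transcript lengths came from GENCODE M21, which matched 16251 of 16469 genes (98.7%), with a fragment length of 250 ± 25 bases. The excess coefficient takes off a counting part estimated from these lengths, which is approximate where transcripts are mixed. TMM and median-of-ratios factors were computed in code written for this work.

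Spread was compared with limma 3.58.1 in R 4.3.3 over all 4 groups, as absolute deviations from group means. On simulated data for that comparison, run on 4827 genes with 200 changed, 40% of genes with a 4-fold spread and 94% with an 8-fold spread were recovered, and 14.0 and 10.5% of calls were unchanged genes. Both shares of unchanged genes were larger than the limit of 0.05 on the adjusted p in limma allows. Recovery of genes that are narrower at 0.2 mg/kg was not tested separately. Other values were computed in Python 3.11.15 with numpy 2.4.6, pandas 2.3.3 and scipy 1.17.1.

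Named genes were taken from the 20 highest genes, up to 4 highest and 3 most variable members per list with defining cell markers, the 30 most variable genes, the 10 least variable genes of at least 50 CPM and the 10 leading genes of the spread test. For the most variable genes, examples were taken from protein-coding genes without transcripts under 300 bases. That restriction, the length-scale values and genes such as Phlda1, Foxq1, Socs2, Onecut1, Elovl3, Hsd3b5, Pecam1 and Isg15 were chosen after the values were seen. The members and gene lists were chosen with earlier results of these data known. The place of Gm26377 within Eef1a1 comes from GENCODE M21 on GRCm38, and the only coordinates printed are those of RefSeq promoters.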

Additional observations from a re-analysis of the deposited data

Results flagged for a closer look

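Of 241 series of values over the 7 controls, 17 had 1 liver farther from the rest than Dixon's critical value allows. Chance alone gives about 1 in 20 such series when they are independent and not chosen by their values. Here some genes were named for their spread or after their values were seen. Some lists also hold genes that were checked singly, so the 17 are not set against that rate. Control 27 was the distant liver in 9 of them, control 1 in 4, control 29 in 2, and controls 14 and 15 in 1 each.

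In control 27 plasma carriers held 4.77% of gene units, against 3.47 to 3.95% in the other 6 controls. The alpha-1 serpins held 1.16% there, against 0.888 to 0.981%, and gluconeogenesis and glycogen genes held 0.292%, against 0.324 to 0.342%. Ahsg stood at 13866 CPM against 8140 to 10082, Serpina1e at 2869 against 1582 to 1927, Trf at 1716 against 1182 to 1340 and Plg, the plasminogen gene, at 221 against 182 to 198. Socs2 stood at 32.9 CPM against 9.06 to 14 and Onecut1 at 12.8 against 3.51 to 4.30.

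In control 1 the pseudogene Gm29216 stood at 19239 CPM, against 5565 to 8277 in the other 6. The ribosomal protein gene Rps29 was lowest there at 2680 CPM, against 2865 to 2994, as were C4b at 442, against 507 to 551, and Saa3 at 29, against 356 to 532.

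In control 29 Mup-ps17 stood at 120754 CPM, against 81085 to 96138, and the tryptophan oxygenase gene Tdo2 was lowest at 216 CPM, against 231 to 242. In control 15 Phlda1 stood at 121 CPM, against 31 to 69.8, and in control 14 Plekha1 stood at 29.4 CPM, against 1.45 to 1.91. A pair of livers that lie together, such as controls 28 and 29, hide each other from this rule.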

How the results depend on the processing

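No paired analysis was possible because the groups share no animal numbers. The count of variable genes (233) was 634 with a mean of at least 1 CPM, 97 at 20 CPM, 3063 with no filter and 522 with an excess of at least 0.3, and 224 to 243 when 1 control was left out. For protein-coding genes (83) these counts were 299, 28, 1519 and 312, with 158 on the deposited spike-in scale, 48 without controls 28 and 29 and 83 to 97 with 1 control left out. Of the variable control genes, 28.9% were also variable at 0.2 mg/kg (95% exact binomial interval 19.5 to 39.9%), and 41.7% without controls 28 and 29. Leaving mitochondrial transcripts out of the total gave shares of 23.5% for secreted proteins, 7.18% for metabolism and 0.249% for non-parenchymal markers. Leaving out all genes whose names begin with Mup, pseudogenes such as Mup-ps17 included, gave 13.1, 7.49 and 0.259% in that order. Mitochondrial transcripts then held 18.6%. Multiplying back by the median transcript gave 30.3, 11.7, 0.328 and 19.7%, and by the longest 25.6, 11.1, 0.492 and 10.2%. Both totals leave out the 218 unmatched genes. With 1 control left out the shares were 19.7 to 20.3, 6.03 to 6.26, 0.204 to 0.218 and 14.9 to 15.3%. The spread test (180 genes in limma) called 32 genes on the deposited scale, 466 with no filter, 0 with deviations from the median, 86 with only controls and 0.2 mg/kg livers, 29 without controls 28 and 29, and 22 to 302 with 1 control left out. Except for the lower counts that follow from fewer genes or livers, the cause was not tested. Of 39 named variable genes, 38 remained variable with TMM, 38 on the deposited scale, 30 under every left-out control and 9 without controls 28 and 29. The length-scale and protein-coding settings were chosen after seeing the data. Long transcripts give few reads per unit of length, and genes under 5 CPM were not judged for spread.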
